A study of Mus musculus with 36 samples.

Results

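The tubulin genes were followed as a family in B3 cells: Tubb2b together with 9 other genes that encode the subunits of microtubules. The members are the rows of the expression table whose symbol is Tubb2b, Tubb2a, Tubb3, Tubb4b, Tubb5, Tubb6, Tuba1a, Tuba1b, Tuba1c or Tuba4a. All 10 were found among the 12762 genes of the table, 6 of them beta-tubulins and 4 alpha-tubulins. Tubb2b was selected on its log2 difference between Ikaros and control cells at 24 h, so its 24 h values are given as a description without a test, and the other members were listed for their family.

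The B3 line, derived from mouse pre-B cells, grows in culture, and its messenger RNA was sequenced in 36 libraries. Ikaros cells carry a retroviral vector for an inducible fusion of the transcription factor Ikaros (Ikaros-ERt2), which enters the nucleus when 4-hydroxy-tamoxifen (4-OHT) is given. Control cells carry a vector without Ikaros, which the study calls empty. By its culture methods that vector holds the hormone-binding domain of the estrogen receptor (ERt2). Both lines were sampled at 0, 2, 6, 12, 18 and 24 h with n = 3 libraries per line and time, each from a numbered culture batch, and 0.5 uM 4-OHT was given to both lines. The 0 h cells were cultured in separate batches and, by the methods of the study, without the drug, although their labels list it.

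By the methods, cells of both lines were sorted on GFP after infection and the positive cells were expanded, and no cloning step is described. In bulk RNA a change in the make-up of the population cannot be told apart from a change in RNA per cell. Ikzf1, which encodes Ikaros, lay between 13.95 and 14.85 in the 18 control libraries and between 19.63 and 20.93 in the 18 Ikaros libraries, with no overlap. All 10 B cell precursor markers examined were in the table, with a summed log2 level of 19.30 to 19.71 in control and 18.99 to 19.85 in Ikaros cells. Cd79a, with a median of 18.54 in control and 18.17 in Ikaros cells, was the highest marker, so the sum rests largely on it. Single markers moved within that sum. At 24 h 6 were called higher in Ikaros cells, among them Rag1 (10.03 in control, 15.22 in Ikaros cells). The 2 called lower were Igll1 (16.56 and 12.60) and Vpreb1 (16.13 and 12.71). Of all genes 31% were called higher and 31.9% lower at that time.

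Markers of other cell types were few in the table. Of 6 neural markers only Syp and Map2 were listed, with a summed level of 9.53 to 10.60 in control and 9.36 to 11.03 in Ikaros cells, and Rbfox3, Snap25, Dcx and Nefl were not among the genes of the table. Syp was not called at 24 h (-0.61, adjusted p = 0.226), whereas Map2 was higher in Ikaros cells (10.01 in control, 10.77 in Ikaros cells, adjusted p = 0.00352). Of 6 markers each, 1 T cell, 3 myeloid and 3 erythroid markers were listed. The T cell marker Lat ranged from 9.17 to 10.49 in control and 7.01 to 10.80 in Ikaros cells and was lower at 24 h (9.79 and 7.45). The myeloid sum ranged from 9.28 to 11.16 and 10.10 to 11.73, and at 24 h Itgam was higher (5.11 and 9.35), Lyz2 lower (7.61 and 4.68) and Cd68 not called. The erythroid sum ranged from 8.13 to 9.10 and 7.32 to 9.06, and the lowest adjusted p of its 3 markers at 24 h was 0.312 (Hbb-b1). The part of these markers in the results was not tested.

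Microtubules are built from dimers of 1 alpha-tubulin and 1 beta-tubulin, and mammals encode several isotypes of each that differ mainly at their C-terminal tails. Some isotypes are made in most dividing cells (Tubb5, Tubb4b, Tuba1b), whereas others are best known from neurons, among them Tubb2b, Tubb3 and Tuba1a. Cells also set tubulin mRNA levels by autoregulation, in which the factor TTC5 recognises the first residues of a nascent tubulin chain on the ribosome and its mRNA is then degraded.

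The first 30 coding bases of the members around which the results turn are shown because the autoregulation signal lies there and because they show how alike the isotypes are. Capitals mark the first 4 codons (12 bases), read from the transcripts of GENCODE mouse release M21 on GRCm38.
Tubb2b: ATGCGAGAGATCgtgcacattcaggcgggc
Tubb2a: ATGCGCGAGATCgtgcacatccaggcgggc
Tubb3: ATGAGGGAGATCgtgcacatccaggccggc
Tubb5: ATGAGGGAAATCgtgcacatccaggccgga
Tuba1a: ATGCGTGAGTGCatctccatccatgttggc
Tuba1b: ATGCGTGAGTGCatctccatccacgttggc
Tuba4a: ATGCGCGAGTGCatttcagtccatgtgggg
All 4 beta sequences shown end their capitals with the codon ATC and all 3 alpha sequences with TGC. Over the whole coding sequence Tubb2b and Tubb2a share 96.5% of their bases, and Tuba1a and Tuba1b share 98.3%. The other pairs of beta members share 80.2% to 86%.

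This likeness bears on how the reads could be counted, because the authors kept only fragments with a unique best position. Of all 75-base windows of a Tubb2b transcript, 32.2% also occur in a transcript of another gene (Tubb2a or the pseudogene Tubb2a-ps2). The share is 43.2% for Tubb2a, 37.8% for Tubb4b, 68.2% for Tuba1a, 71.9% for Tuba1b and 56.7% for Tuba1c. It is 0% for Tubb3, Tubb5, Tubb6 and Tuba4a. These shares are for single reads of 75 bases. The libraries were read from both ends, so a fragment could still be placed by its other read. Levels of the genes with shared windows are therefore uncertain to an unknown degree. Tubb3, Tuba1a and Tuba1b also overlap a gene on the same strand, and Tubb4b, Tuba1b and Tuba4a overlap one on the opposite strand. How reads there were counted is uncertain.

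On the GRCm38 map Tubb2b (ENSMUSG00000045136, chr13:34126748-34130466, minus strand) and Tubb2a (ENSMUSG00000058672, chr13:34074274-34078007, minus strand) are neighbours. Tuba1b (ENSMUSG00000023004, chr15:98931425-98934565), Tuba1a (ENSMUSG00000072235, chr15:98949837-98953703) and Tuba1c (ENSMUSG00000043091, chr15:99029891-99038110) also lie together, with Tuba1a and Tuba1b on the minus and Tuba1c on the plus strand. The remaining members are dispersed. Tubb3 (ENSMUSG00000062380) is at chr8:123411424-123422015, Tubb4b (ENSMUSG00000036752) at chr2:25222160-25224702 and Tubb5 (ENSMUSG00000001525) at chr17:35833921-35838306. Tubb6 (ENSMUSG00000001473) lies on chromosome 18 and Tuba4a (ENSMUSG00000026202) at chr1:75214228-75219865.

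Every value below is a log2 expression level that the authors had corrected for GC content and gene length and shifted by a constant, so it is relative and not a count. Lines were compared with limma over the whole table, and a difference was called where the Benjamini-Hochberg adjusted p was below 0.05.

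In control cells Tubb5, Tubb4b and Tuba1b led the family and Tubb2b, Tubb6 and Tubb3 closed it. At 24 h Tubb5 (17.89 ± 0.11, SD, n = 3) was at percentile 99.2 of all genes and Tubb4b (17.39 ± 0.15) at 98.9, followed by Tuba1b (16.91 ± 0.13), Tuba4a (15.01 ± 0.09), Tuba1c (14.25 ± 0.16) and Tuba1a (12.93 ± 0.18). Tubb2a (11.96 ± 0.12) was at percentile 54.1, Tubb2b (10.39 ± 0.43) at percentile 32.5, Tubb6 (7.62 ± 0.29) at 12.9 and Tubb3 (4.84 ± 0.41) at 0.807. No 2 neighbours in this order overlapped in their 3 libraries at 24 h. At 0 h the order was the same, and there Tuba1a and Tubb2a overlapped.

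In Ikaros cells at 24 h that order had been rearranged below the top 2 genes. Tubb5 (18.17 ± 0.02) and Tubb4b (17.23 ± 0.05) were still the highest, but Tubb2b (16.43 ± 0.25) came next, above Tuba1a (15.85 ± 0.18) and Tuba1b (15.75 ± 0.11), which overlapped. Then came Tubb2a (14.75 ± 0.15), Tuba1c (13.81 ± 0.10), Tuba4a (13.12 ± 0.21), Tubb3 (9.21 ± 0.15) and Tubb6 (3.84 ± 0.41). Tubb2b thus moved from percentile 33.9 of all genes in Ikaros cells at 0 h to 98.0 at 24 h, while Tubb6 ended at 0.125.

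**Figure D1:**
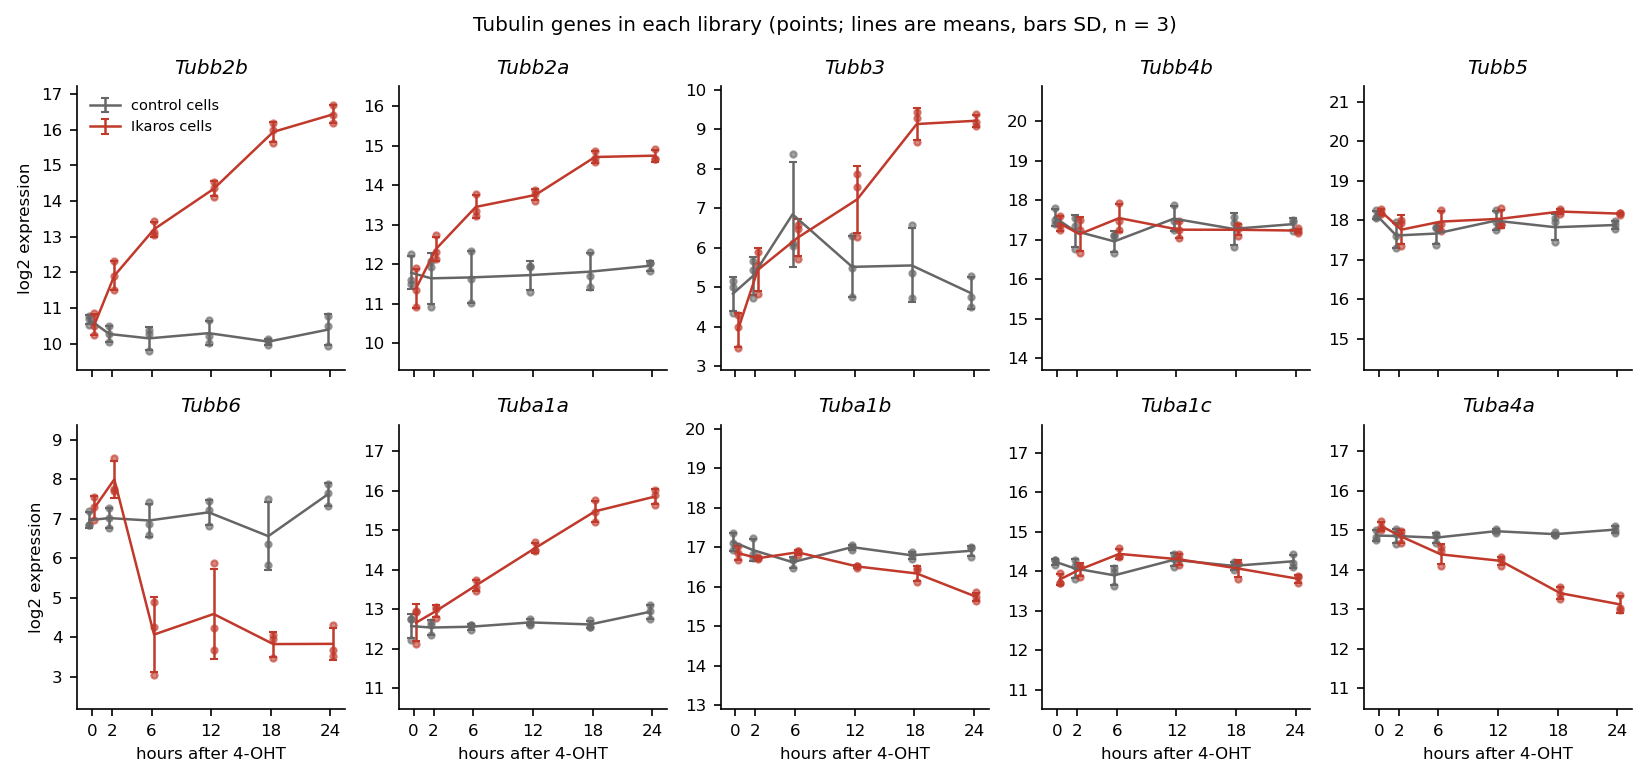
Log2 expression of the 10 tubulin genes (vertical axes, each spanning at least 7 log2 units but starting at different levels) against hours after 4-OHT, for control (grey) and Ikaros cells (red), with each library as a point, the mean of 3 as a line and the SD as a bar. Tubb2b rises from 10.25 to 10.85 at 0 h to 16.18 to 16.69 at 24 h in Ikaros cells and stays between 9.78 and 10.78 in control cells, whereas Tubb4b and Tubb5 stay close in both lines.

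Tubb2b was higher in Ikaros cells from the first time after induction. At 0 h its 3 libraries were at 10.78, 10.53 and 10.69 in control and at 10.85, 10.49 and 10.25 in Ikaros cells, which overlap. At 2 h the control libraries were at 10.27, 10.49 and 10.05 and the Ikaros libraries at 12.31, 11.91 and 11.50, so that every Ikaros library lay above every control library. This was a difference of 1.63 on the log2 scale (SE 0.23, adjusted p = 5.73e-06), or 3.10-fold if the log base is 2, and no other member was called at that time.

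The gap widened at each later time. The Ikaros values were 13.45, 13.05 and 13.12 at 6 h. They were 14.53, 14.11 and 14.37 at 12 h, and 15.99, 15.63 and 16.19 at 18 h, while no control library of these times exceeded 10.67. The differences were 3.06 at 6 h (SE 0.23, adjusted p = 5.82e-11), 4.05 at 12 h (adjusted p = 1.03e-13) and 5.88 at 18 h (adjusted p = 3.47e-17). At 24 h, where the gene was chosen, Ikaros libraries were at 16.69, 16.18 and 16.42 and control libraries at 10.48, 10.77 and 9.93, a difference of 6.04 or 65.7-fold. The increase of the Ikaros mean per hour was 0.69 log2 units from 0 to 2 h, between 0.19 and 0.33 in the 3 intervals up to 18 h, and 0.08 from 18 to 24 h.

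Tubb2a, the neighbouring gene with a near-identical coding sequence, rose as well, from a higher level. At 2 h the Ikaros libraries (12.73, 12.31 and 12.13) were all above the control libraries (12.09, 11.94 and 10.91), but the difference of 0.74 (SE 0.31) had an adjusted p of 0.10. With the culture batch as a block its adjusted p was 0.0531, and with separate 0 h cultures in that block 0.0132. At 6 h the difference was 1.79 (SE 0.31, adjusted p = 6.12e-05), at 12 h 2.03 (adjusted p = 6.11e-06) and at 18 h 2.90 (adjusted p = 9.56e-09). At 24 h Ikaros libraries were at 14.93, 14.66 and 14.67 and control libraries at 12.03, 12.04 and 11.82, a difference of 2.79 (adjusted p = 1.47e-08).

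Because the pair lies side by side, the gap between them was read within each library. Tubb2b was below Tubb2a in all 18 control libraries, with a mean of Tubb2b minus Tubb2a between -1.76 and -1.12 log2 units at the 6 times. In Ikaros cells this mean went from -0.87 at 0 h (range -1.66 to -0.44) through -0.25 at 6 h to 0.58 at 12 h (range 0.51 to 0.65) and 1.68 at 24 h (range 1.52 to 1.76). Tubb2b was the lower gene of the pair in every Ikaros library up to 6 h and the higher one in every Ikaros library from 12 h.

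Tubb3, the isotype used as a marker of neurons, was among the genes with the lowest values and was called between the lines from 12 h. In control cells it ranged from 4.35 to 8.38, with a median of 5.32, and the highest value was a single 6 h library. Ikaros libraries at 0 h were at 3.45, 4.00 and 4.29, all below the control libraries (5.15, 4.35 and 5.00), a difference that was not called (-0.92, adjusted p = 0.373). At 2 h they were at 5.57, 4.84 and 5.90 and at 6 h at 6.56, 6.48 and 5.71, within or near the control values of those times, and neither difference was called. Against their own 0 h, however, the Ikaros cells were already higher at both times, as given with the counts. At 12 h the Ikaros libraries were at 7.53, 7.86 and 6.27, the last of which overlapped the control values (4.76, 6.30 and 5.48). The 12 h difference was 1.71 (SE 0.53, adjusted p = 0.00970), and it was not called without replicate 1 (adjusted p = 0.153) or when only the compared groups were fitted (adjusted p = 0.0563). At 18 h the Ikaros libraries (9.27, 8.67 and 9.44) no longer overlapped the control libraries (5.36, 4.72 and 6.57), with a difference of 3.58 (adjusted p = 1.88e-06). At 24 h, Ikaros libraries at 9.38, 9.07 and 9.19 stood against control libraries at 4.74, 4.49 and 5.29, a difference of 4.37 (SE 0.53, adjusted p = 5.68e-08). Even then Tubb3 was at percentile 22.2 of all genes.

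Tubb6, a beta isotype of many non-neuronal tissues, fell in Ikaros cells between 2 and 6 h. Ikaros libraries at 2 h (7.71, 8.53 and 7.75) were all above the control libraries (7.01, 7.28 and 6.76), with a difference of 0.98 that was not called (SE 0.45, adjusted p = 0.143). At 6 h they were at 4.27, 3.03 and 4.91 against 6.59, 7.42 and 6.87 in control cells, a difference of -2.89 (SE 0.45, adjusted p = 1.62e-05). From then on the lines did not overlap at any time, and they were closest at 12 h, where the highest Ikaros value was 5.88 and the lowest control value 6.82. The differences were -2.57 at 12 h (adjusted p = 3.98e-05), -2.73 at 18 h (adjusted p = 1.07e-05) and -3.79 at 24 h (adjusted p = 5.02e-08). These values are near the bottom of the table, whose lowest value is 1, and the table gives no read counts behind them.

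Tubb5 and Tubb4b, the most abundant beta members, moved little. Tubb5 was between 17.31 and 18.27 in control and between 17.35 and 18.31 in Ikaros cells over all times. It was called at no time, with differences from 0.05 at 12 h to 0.40 at 18 h, where the adjusted p was 0.0698 and, with the culture batch as a block, 0.0316. At 24 h its Ikaros libraries were at 18.19, 18.15 and 18.18 and its control libraries at 17.88, 18.00 and 17.78 (adjusted p = 0.180, and 0.0361 when only the compared groups were fitted). Tubb4b was called once, at 6 h, when Ikaros libraries at 17.92, 17.47 and 17.25 stood against 17.13, 17.09 and 16.66 in control cells. That difference of 0.59 (SE 0.23, adjusted p = 0.0424) was not called without replicate 1 (adjusted p = 0.237), without replicate 2 (adjusted p = 0.177) or when only the compared groups were fitted (adjusted p = 0.133). Against 0 h, Tubb4b at 6 h differed by -0.61 in control cells (adjusted p = 0.0925) and by 0.14 in Ikaros cells (adjusted p = 0.679). At 24 h the Tubb4b difference between the lines was -0.16 (SE 0.23).

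Among the alpha-tubulins, Tuba1a, an isotype of developing neurons, rose steadily. It was between 12.21 and 13.10 in all control libraries. Ikaros libraries were at 12.95, 12.92 and 12.11 at 0 h and at 13.01, 13.05 and 12.79 at 2 h, each of the last 3 above the control libraries (12.33, 12.68 and 12.59). The 2 h difference of 0.42 had an adjusted p of 0.104, which was 0.0547 with the culture batch as a block, 0.0190 with separate 0 h cultures in that block and 0.0407 without replicate 3. At 6 h Ikaros libraries reached 13.75, 13.47 and 13.57 (difference 1.04, SE 0.18, adjusted p = 4.40e-05). At 12 h the difference was 1.89 (adjusted p = 1.99e-09), at 18 h 2.86 (adjusted p = 2.85e-13) and at 24 h 2.92 (adjusted p = 1.13e-13). At 24 h the Ikaros libraries were at 16.01, 15.65 and 15.89 and the control libraries at 12.95, 13.10 and 12.74.

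Tuba1b and Tuba4a, the most abundant alpha members of control cells, fell. For Tuba1b, Ikaros libraries at 12 h (16.54, 16.53 and 16.48) were below control libraries (17.01, 17.07 and 16.94), a difference of -0.49 (SE 0.12, adjusted p = 0.00177). The 18 h difference was -0.46 (adjusted p = 0.00215), and without replicate 2 neither was called (adjusted p = 0.0734 at 12 h and 0.0585 at 18 h). At 24 h the libraries stood at 15.86, 15.65 and 15.74 in Ikaros and at 16.98, 17.00 and 16.76 in control cells, a difference of -1.17 (adjusted p = 4.44e-09). The fall of Tuba4a began earlier, with a difference of -0.42 at 6 h (SE 0.12, adjusted p = 0.00916), not called without replicate 1 (adjusted p = 0.0538), without replicate 2 (adjusted p = 0.0896) or when only the compared groups were fitted (adjusted p = 0.147). It was -0.75 at 12 h (adjusted p = 1.78e-05) and -1.49 at 18 h (adjusted p = 9.76e-11), and it reached -1.89 at 24 h (adjusted p = 5.73e-13). At 24 h Ikaros libraries of Tuba4a were at 13.02, 13.36 and 12.97 and control libraries at 14.93, 15.10 and 15.00.

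Tuba1c, the close relative of both Tuba1a and Tuba1b, was called lower at 0 h, higher at 6 h and lower at 24 h, and each call was lost in some of the alternative fits. It was the only member called before induction, with Ikaros libraries at 13.94, 13.71 and 13.71 against 14.16, 14.28 and 14.29 in control cells (difference -0.46, SE 0.14, adjusted p = 0.0352), and that call was absent without replicate 1 (adjusted p = 0.158) or replicate 2 (adjusted p = 0.552). At 6 h the difference was 0.54 (adjusted p = 0.00273, and 0.0757 without replicate 1 or 0.0790 when only the compared groups were fitted). At 24 h it was -0.44 (adjusted p = 0.00650, and 0.217 without replicate 2), with Ikaros libraries at 13.88, 13.69 and 13.86 and control libraries at 14.21, 14.43 and 14.11.

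**Figure D2:**
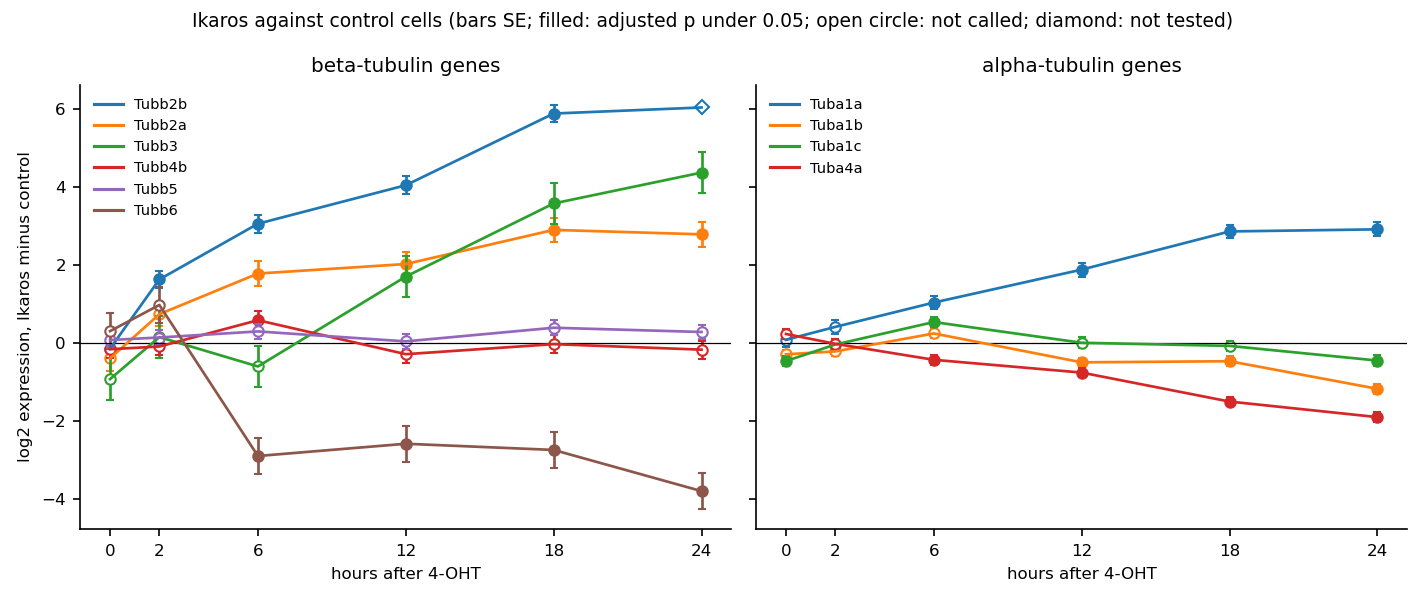
Difference in log2 expression between Ikaros and control cells (vertical axis) against hours after 4-OHT for beta-tubulin genes (left) and alpha-tubulin genes (right), with SE bars, filled points where the adjusted p was below 0.05, open circles where it was not, and an open diamond for Tubb2b at 24 h, which was not tested. Tubb2b rises to 6.04, Tubb3 to 4.37, Tuba1a to 2.92 and Tubb2a to 2.79 at 24 h, while Tubb6 reaches -3.79 and Tuba4a -1.89.

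Counted over the family, 1 of 10 members was called between the lines at 0 h, where 8.33% of all genes were called, and 1 at 2 h, where 19.1% were. At 6 h 5 members were higher and 2 lower in Ikaros cells (37.3% of all genes called in either direction), and at 12 h 4 were higher and 3 lower (45.8%). At 18 h 4 were higher and 3 lower (58.2%). The member called at 2 h was Tubb2b, which was chosen for its 24 h difference and is also among the higher members at 6, 12 and 18 h. At 24 h 3 were higher and 4 lower of the 9 tested (62.9%), the 3 being Tubb2a, Tubb3 and Tuba1a. Among the 4 was Tuba1c, whose difference was similar at 0 h. The median difference over the 9 tested members was -0.16 at 24 h, beside -0.01 over all genes, and with the selected value of Tubb2b included it was 0.06.

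Against their own 0 h, Ikaros cells had 3 of 10 members called at 2 h, all higher, where 19.2% of all genes were called. These were Tubb2b (1.37, adjusted p = 9.84e-05), Tubb2a (0.99, adjusted p = 0.0275) and Tubb3 (1.52, adjusted p = 0.0439). The call of Tubb3 was lost with the culture batch as a block (adjusted p = 0.0650) and whichever of the 3 replicates was left out, and that of Tubb2a without replicate 1 (adjusted p = 0.172) or replicate 2 (adjusted p = 0.298). The block added Tubb5 (-0.54, adjusted p = 0.0192) and Tuba4a (-0.34, adjusted p = 0.0435), both lower. At 6 h 5 members, Tubb3 among them, were higher and 2 lower (32.8% of all genes), at 12 h 5 and 3 (46.1%), at 18 h 4 and 3 (54.6%), and at 24 h 3 and 3 of the 9 tested (60.6%).

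The control cells served as background for drug and culture. Against their 0 h, none of the 10 members was called at 2, 12 or 18 h with limma, nor any of the 9 tested at 24 h, where 0.047%, 0.0549%, 0.478% and 0.47% of all genes were. Before adjustment 1, 0, 2 and 0 of them had a p below 0.05, and at 6 h 6 of 10 members did. At 6 h, where 5.1% of all genes were called, Tubb3 was higher by 2.01 (SE 0.53, adjusted p = 0.0325) and Tuba1b differed by -0.51 (SE 0.12, adjusted p = 0.0229). Control libraries of Tubb3 at 6 h were at 8.38, 6.04 and 6.11 against 5.15, 4.35 and 5.00 at 0 h. Without replicate 1, which holds the highest value, its difference was 1.40 (adjusted p = 0.293), and with any of the 3 replicates left out no member was called. With the culture batch as a block 5 members were called at 6 h in control cells, as Tubb4b (-0.73, adjusted p = 0.0126), Tubb5 (-0.56, adjusted p = 0.0256) and Tuba1c (-0.40, adjusted p = 0.0174) were added. The share of all genes called with that block is not given here, so this count has no background beside it.

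A change of the line difference from its 0 h value, the interaction of line and time, was called for 6 of 10 members at 12 h (29.7% of all genes), with Tubb2b, Tubb2a, Tubb3 and Tuba1a higher and Tubb6 and Tuba4a lower. With the culture batch as a block Tuba1c was added (0.47, adjusted p = 0.0147). At 24 h it was called for 6 of the 9 tested (48.4% of all genes), with Tubb2a, Tubb3 and Tuba1a higher and Tubb6, Tuba1b and Tuba4a lower.

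How far these changes altered the mixture of isotypes was described by the share of each gene in the summed level of its class, after the values were taken off the log2 scale. The shares assume base 2 and carry the uncertainty from reads that several tubulin genes share. Tubb2b made up 0.31% ± 0.08 (SD, n = 3) of the 6 beta-tubulins in Ikaros cells at 0 h, 1.02% at 2 h and 2.02% at 6 h. It then reached 4.59% at 12 h, 11.5% at 18 h and 15.7% ± 2.05 at 24 h. In control cells it was 0.32% ± 0.07 at 24 h. Tubb2a went from 0.57% to 4.88% ± 0.30 in Ikaros cells.

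The major beta isotypes gave up share without a called loss of level. Tubb4b was at 36% at 0 h and 27.1% at 24 h in Ikaros cells, and at 41.0% at 24 h in control cells. Tubb5 was at 63.1% at 0 h and 52.2% at 24 h in Ikaros cells, and at 57.6% at 24 h in control cells. Tubb3 remained at 0.10% of the beta sum in Ikaros cells at 24 h despite its rise.

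Among the alpha-tubulins Tuba1a gained share and Tuba1b and Tuba4a lost it. Tuba1a was 3.84% of the 4 alpha-tubulins in Ikaros cells at 0 h, 15.3% at 12 h and 29.2% at 18 h. By 24 h it was 42.9% ± 2.03, against 4.25% in control cells. Tuba1b went from 67.9% to 40.0% ± 0.54 in the same cells and was at 67.2% in control cells at 24 h, and Tuba4a went from 20.1% to 6.58%. Within libraries, Tuba1a minus Tuba1b was -4.57 log2 units on average in control and -4.2 in Ikaros cells at 0 h. At 24 h it was 0.10 in Ikaros cells (range 0.00029 to 0.15) and -3.98 in control cells (range -4.03 to -3.90).

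The log2 of the summed level at 24 h was 19.11 ± 0.07 in Ikaros and 18.68 ± 0.12 in control cells for the beta-tubulins, and 17.07 ± 0.12 and 17.49 ± 0.12 for the alpha-tubulins. The 3 libraries of each line did not overlap in either sum, the beta sum being higher and the alpha sum lower in Ikaros cells. At 0 h both sums overlapped between the lines, with a mean beta sum of 18.90 in control and 18.89 in Ikaros cells. At 6 h the alpha sum was instead higher in Ikaros cells without overlap (17.37 to 17.51, and 17.04 to 17.29 in control cells). It was lower without overlap at 12 h, and the lines overlapped at 18 h. These sums were not tested.

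**Figure D3:**
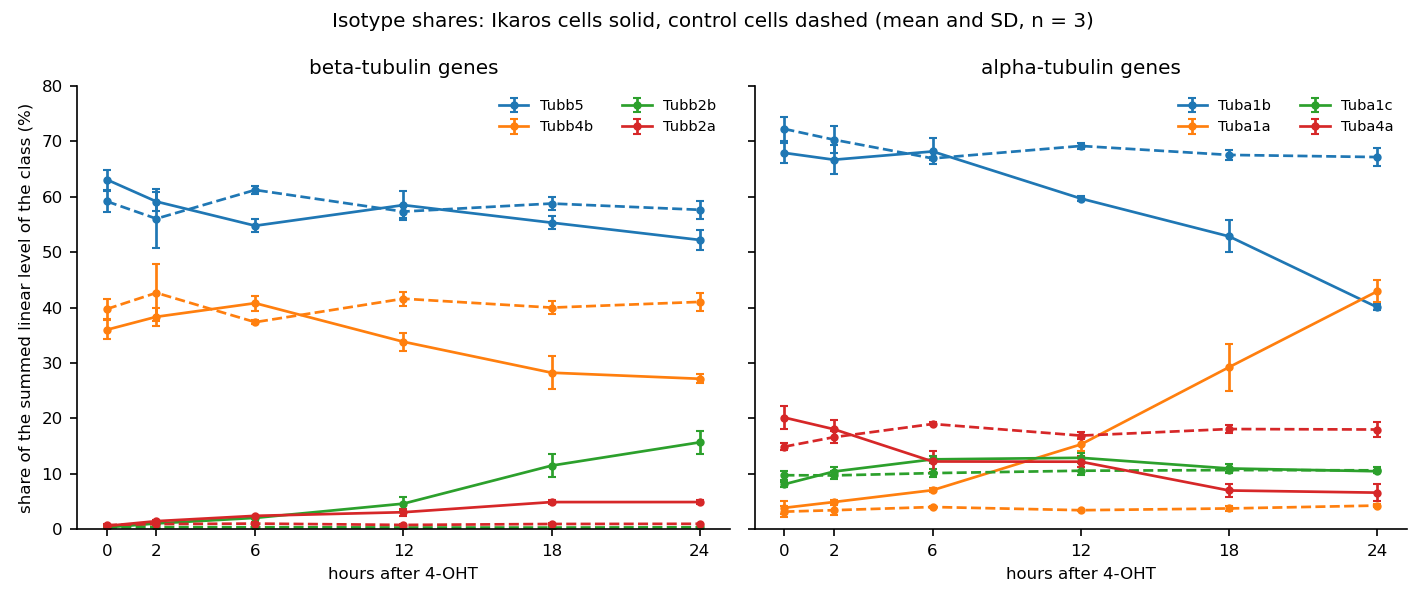
Share of each isotype in the summed linear level of its class in percent (vertical axis) against hours after 4-OHT, for the 4 most abundant beta-tubulin genes (left) and the 4 alpha-tubulin genes (right), with Ikaros cells as solid and control cells as dashed lines (mean and SD, n = 3). Tubb2b climbs to 15.7% of the beta sum and Tuba1a to 42.9% of the alpha sum in Ikaros cells, while the control lines stay nearly level.

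The genes whose profile over the 36 libraries was most like that of Tubb2b were sought among the 6366 genes with a symbol and a mean at or above the median gene. They were Agpat9 (Pearson r = 0.992), Neil1 (0.989), Cerk (0.986), Pink1 (0.984) and Ube2h (0.983). The most opposite were Nol9 and Polr1b (both -0.986) and Htra2 (-0.985). Among the members Tuba1a had r = 0.974 and rank 15, and Tubb2a r = 0.961 and rank 48. Outside the ranking or far down it were Tubb3 (0.818), Tubb6 (-0.833), Tuba1b (-0.768) and Tuba4a (-0.932). Libraries share a time course and a line difference here, so many genes correlate and these coefficients are a description only.

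Other tubulin and microtubule genes were read from 6 lists, of whose 93 genes 73 were in the table. Apart from Mapt and Map2, the genes named from these lists had the largest called rise or fall of their list at 24 h. Their 24 h p-values thus come from the values that picked them. At 24 h 28 of them were higher and 21 lower in Ikaros cells, beside 31% and 31.9% of all genes. The other tubulin genes (6 in the table) held 2 higher and 3 lower, with a median difference of -0.12. The components and anchors of the gamma-tubulin ring complex, which nucleates microtubules (11), held 1 higher, the anchor Akap9 (0.49), and 3 lower, with Mzt2 at -0.49, and had a median of 0.05. The calls of Akap9 and Mzt2 were each lost in 2 of the 3 fits without a replicate.

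Tuba8, an alpha-tubulin outside the chosen family, had the largest fall of any listed gene. Its control libraries at 24 h were at 12.48, 11.96 and 12.52 and its Ikaros libraries at 6.04, 5.76 and 6.63, a difference of -6.18 (SE 0.30, adjusted p = 1.10e-15). It did not differ by the test at 0 h (0.70, adjusted p = 0.184) or at 2 h (-0.44, adjusted p = 0.350), and at 6 h the Ikaros libraries had come down to 8.88, 8.29 and 8.69 (difference -3.01, adjusted p = 1.18e-08). The difference was -5.75 at 12 h and -6.06 at 18 h. The mean level of Tuba8 was thus 12.32 in control cells, beside 12.93 for Tuba1a, and 6.14 in Ikaros cells, beside 15.85 for Tuba1a. Tubb4a had the largest rise of these genes (1.24, adjusted p = 0.0192), not called without replicate 1 (adjusted p = 0.139) or replicate 2 (adjusted p = 0.0996).

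Among 14 genes for the folding of tubulin and its autoregulation, 6 were higher and 2 lower, with a median of 0.31. The largest rise was that of Ttc5, the autoregulation factor named above. Its control libraries at 24 h were at 12.81, 12.83 and 12.86 and its Ikaros libraries at 14.65, 14.36 and 14.58, a difference of 1.70 (SE 0.13, adjusted p = 1.99e-11). It was not called at 0, 2 or 6 h and differed by 0.56 at 12 h (adjusted p = 0.00112) and by 1.35 at 18 h (adjusted p = 2.07e-09). The largest fall was that of Arl2, a small GTPase that works with the tubulin cofactors (-1.0, adjusted p = 1.28e-06).

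Among 18 tubulin modifying enzymes, 7 were higher and 7 lower, with a median of 0.02. Nicn1, a subunit of the tubulin polyglutamylase complex, had the largest rise (1.41, adjusted p = 2.22e-05), and Atat1, the enzyme that acetylates alpha-tubulin, the largest fall, from 10.19 ± 0.07 in control to 7.55 ± 0.40 in Ikaros cells (-2.64, adjusted p = 1.02e-12). Of 16 microtubule-associated and plus-end proteins, 9 were higher and 3 lower, with a median of 0.47. Mapt, a protein of neuronal microtubules, was picked out after its values were seen, so it is described without a test. It was at 6.83 ± 0.48 in control and 8.33 ± 0.36 in Ikaros cells, both below 9.51, the percentile 25 of gene means. Map2 was higher, whereas the neural marker Syp was not called, as given above. Map7d1 rose most (2.04, adjusted p = 7.20e-15) and Macf1 fell most (-0.69, adjusted p = 0.0104), the latter not called without replicate 1 (adjusted p = 0.116) or replicate 2 (adjusted p = 0.145). Of 8 destabilising and severing proteins, 3 were higher and 3 lower, with a median of 0.08. Stmn1, which sequesters tubulin dimers, rose by 0.94 (adjusted p = 0.000787), and the AAA ATPase gene Fignl1 differed by -1.18 (adjusted p = 3.16e-08).

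**Figure D4:**
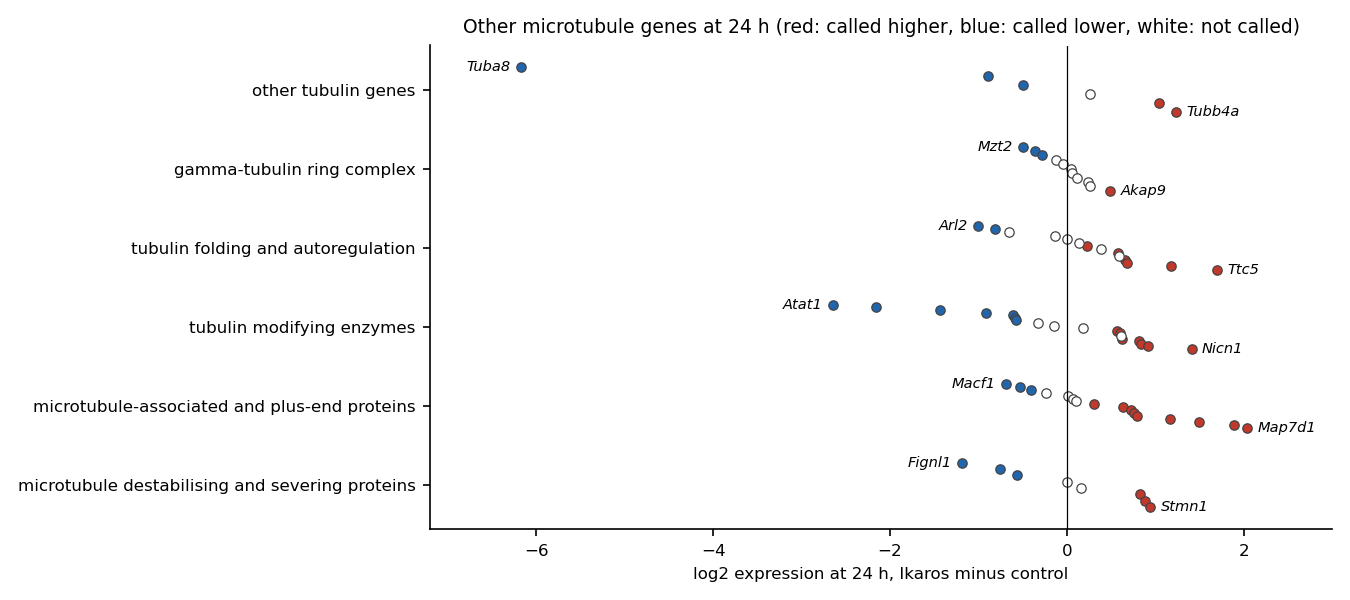
Difference in log2 expression between Ikaros and control cells at 24 h (horizontal axis) for each gene of 6 microtubule lists (rows), in red where called higher, blue where called lower and white where not called at an adjusted p below 0.05. Tuba8 lies far to the left at -6.18, and the genes with the largest called rise and fall of each list are named.

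Promoters were inspected because several members moved together in cells with induced Ikaros. The core of the Ikaros binding motif, TGGGAA, was searched on both strands in the 300 bases from 250 before to 50 after the start of each gene (RefSeq, GRCm38.p6), and 25.6% of 32851 such windows hold it. Windows of 8 members were searched, and Tubb2b and Tubb6 were not among them. A match was found in Tubb4b alone, within the 30 bases of chr2:25224786-25224815, shown on the strand of the gene with the motif in capitals.
Tubb4b: agagtatattgtTGGGAAggcgggccccag
The absence of these letters from the other 7 windows says nothing about binding elsewhere.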

How the data were processed

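Strand-specific mRNA-seq of 36 B3 libraries was analysed (12 groups, 3 libraries each). The authors trimmed reads, mapped fragments to mm10 with TopHat2 keeping unique best hits, counted genes with HTSeq, normalized with cqn for GC content and length, and adjusted for library preparation with non-parametric ComBat. The deposited values are log2 expression with a constant added so that the lowest is 1. The table does not state the base, so folds and shares assume base 2. The table holds no read counts, so the depth reached in each library was not used here, and precision rests on 3 libraries per group. The strand setting of the counting was not given in the sources used here.

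Groups came from the labels. limma 3.58.1 (R 4.3.3; lmFit, contrasts.fit, eBayes) was fitted to all 12762 genes with a mean per group. P-values are two-sided and Benjamini-Hochberg adjusted over all genes. ComBat before deposition may make standard errors too small. Windows, coding sequences and promoters were read with Python 3.11.15.

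Control and Ikaros cultures of a batch carry the same batch number in the labels, and these numbers pair the libraries. Deviations of paired libraries from their group means correlated from -0.0620 to 0.507 (median 0.127), above 0.1 in 12 of 18 pairs. Alternatives were a replicate block for the batch (also with the 0 h cultures as blocks of their own), a filter on low values, quantile normalization, eBayes with trend, a fit restricted to the groups compared, and leaving out each replicate.

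Members, lists and tests were chosen with earlier results of these data known. Named were all members, Ikzf1, the 5 most and 3 least similar profiles to Tubb2b, and each list's largest called rise and fall at 24 h without overlap. Values of Tuba8 and Ttc5 at other times were added after they were seen.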

Additional observations from a re-analysis of the deposited data

Results flagged for a closer look

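The line difference at 12 h or 24 h differed from that at 0 h for several members, by the limma test of its change (n = 3 libraries per group). Times after induction were not tested against each other. At 12 h the change was 4.18 on the log2 scale for Tubb2b, 2.42 for Tubb2a, 2.63 for Tubb3 and 1.80 for Tuba1a, and it was -2.88 for Tubb6 and -0.99 for Tuba4a. The adjusted p ranged from 1.70e-10 for Tubb2b to 0.00875 for Tubb3. Without replicate 1 the 12 h change was 1.70 for Tubb3 (adjusted p = 0.192) and -2.49 for Tubb6 (adjusted p = 0.0756), which were then not called. At 24 h the change was 3.18 for Tubb2a, 5.29 for Tubb3 and 2.83 for Tuba1a, and it was -4.10 for Tubb6, -0.88 for Tuba1b and -2.13 for Tuba4a, with adjusted p from 1.72e-10 for Tuba4a to 0.00013 for Tuba1b. Since the 0 h cells were collected on separate occasions, a change from 0 h also compares collections, though each line difference was taken within its time.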

How the results depend on the processing

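Values and counts were recomputed under each setting that could give them, fewer under the filter on low values and the block with separate 0 h cultures. The direction was kept in all but 9 cases, and in each of those the value was not called and a replicate had been left out. Without each replicate in turn, the line difference ranged from -0.24 to 0.012 for Tubb2b at 0 h, from -0.18 to 0.65 for Tubb3 at 2 h and from -1.11 to 0.017 for Tubb3 at 6 h. It ranged from -0.079 to 0.035 for Tuba1c at 2 h, from -0.0023 to 0.025 at 12 h and from -0.13 to 0.0016 at 18 h. It ranged from -0.10 to 0.25 for Tubb5 at 12 h and from -0.18 to 0.12 for Tubb4b at 18 h.

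The number of members called between the lines at 0 h ranged from 0 to 1 without a replicate, at 2 h from 1 to 2 and at 6 h from 4 to 7. The number called in Ikaros cells at 2 h against 0 h ranged from 1 to 2, and in control cells at 6 h against 0 h it was 0 without each replicate. With the replicate block and separate 0 h cultures 3 members were called between the lines at 2 h, in place of 1. When only the compared groups were fitted the counts were 4 between the lines at 6 h, 1 in Ikaros cells at 2 h and 0 in control cells at 6 h. In control cells at 6 h the replicate block called 5 members and the filter on low values, which left 8 members, called 1. Shares of all genes called under these settings are not given here, so these counts have no background beside them. The cause of these moves was not tested. Beyond the values given beside the results, the replicate block changed no other call. Tubb2b at 24 h ranged from 5.81 to 6.35 without a replicate.

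The table holds no read counts, so no counting error could be given, which matters most for Tubb3 and Tubb6, near the bottom of the table. Shares were recomputed for Ikaros cells at 24 h alone, and under quantile normalization Tubb2b was at 15.5%, Tubb2a at 4.84%, Tuba1a at 42.9% and Tuba1b at 40.1%.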
